A study of Homo sapiens with 12 samples.

Results

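The kinesins are motor proteins that walk along microtubules or take them apart. The genes described here are the 38 of 59050 gene symbols in the counts table that carry a KIF symbol (KIF, a number and, where present, a letter from A to C). Members were taken by name, not by value, but the family and its classes were chosen with earlier results of these data known. They were divided by known role into 12 mitotic kinesins, 13 transport kinesins, 6 kinesins of the cilium and of Hedgehog signalling, and 7 others. KIF23, a mitotic kinesin of the cytokinetic midzone, was not analysed here. The measurements compare neural progenitor cells (NPC) with the embryonic stem cells (ESC) from which they were made.

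NPC were wild-type HUES8 cells, a human embryonic stem cell line, after 7 days of neural induction in N2 and B27 medium. During induction they received 2.5 uM SB431542, which blocks the TGF-beta, activin and Nodal receptors, and 0.05 uM LDN193189, which blocks BMP receptors, and SB431542 was left out for the last 2 days. ESC were the same wild-type line in mTeSR1 medium on Matrigel, without induction. Both kinds of cell gave 3 libraries of rRNA-depleted total RNA and 3 of RNA bound to ribosomes. How the ribosomes were isolated was not stated in the labels. All material came from a single line, and nothing in the labels says that replicates were separate cultures, so the p-values below measure only the spread between these libraries.

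A kinesin heavy chain has a motor domain that hydrolyses ATP, a coiled-coil stalk, and a tail that binds cargo, often through light chains or adaptors. Mitotic kinesins push the spindle poles apart, move chromosomes, trim microtubule ends and build the cleavage site, and their genes are switched on late in the cell cycle. Transport kinesins carry vesicles, mitochondria and other cargo toward the plus ends of microtubules, and neurons depend on them to supply the axon. Neural progenitors are dividing cells that have not yet formed axons.

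Counts per library ranged from 19529738 to 35117370 for RNA and from 2422756 to 4451196 for ribosome-bound RNA, and values below are CPM, TMM-scaled counts relative to library size. All 6 neural progenitor markers rose and 5 of 6 stem cell markers fell in NPC RNA. Of 6 neural crest markers, 5 were higher and 1 lower in NPC in both assays. Their summed level was 251 to 289.9 CPM in NPC and 28.6 to 37.8 CPM in ESC on ribosomes. In RNA it was 185 CPM in every NPC library and 8.48 to 18.7 CPM in ESC. All 6 mesoderm and endoderm markers were lower on NPC ribosomes, at a summed 1.97 to 4.195 CPM in NPC and 252 to 289 CPM in ESC. In RNA 3 of the 4 tested were lower, at 0.862 to 1.12 CPM in NPC and 10.7 to 11.9 CPM in ESC. The part of these markers in the kinesin results was not tested. Neuron markers were low in both states: their summed RNA level was 73.9 to 77.4 CPM in NPC and 152 to 176 CPM in ESC for 11 genes, with 1 of 9 tested genes higher and 6 lower in NPC. Across genes, RNA_ESC replicate 3 correlated with the other replicates at 0.955 and 0.963, where those correlated at 0.996, and RIBO_ESC replicate 2 correlated at 0.919 and 0.932, where the others correlated at 0.970. These 2 libraries stand apart, and kinesin calls that changed without them are given with and without them. In RIBO_ESC replicate 2 the mitotic kinesins lay below the remaining ESC libraries by a median log2 difference of -1.05, and the transport kinesins by one of -0.43.

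Of the 13 transport kinesins, 11 rose on the ribosomes of NPC, while in RNA 3 rose and 4 fell. Of the 10 mitotic kinesins that could be tested, 1 rose and 0 fell on ribosomes, and 2 rose and 1 fell in RNA. In RNA, 8 kinesins of all classes were higher and 8 lower in NPC, and 19 of the 35 tested passed in neither direction (edgeR's quasi-likelihood test, adjusted p under 0.05). Of all 18631 genes tested for RNA, 26.1% were called higher and 26.0% lower, 52.1% in either direction. On ribosomes, 17 of 32 tested kinesins were higher and 3 lower, where 31.5% of all 12250 genes were higher and 30.2% lower, 61.7% in either direction. Without RNA_ESC replicate 3 the counts in RNA were 14 higher and 13 lower, beside 6777 and 6722 of all 19340 genes. Without RIBO_ESC replicate 2 those on ribosomes were 20 higher and 6 lower, beside 4430 and 4251 of all 12732 genes. Translational efficiency is ribosome-bound RNA relative to total RNA, and its change was the interaction term of a fit over all 12 libraries. It was higher in NPC for 17 of 32 kinesins and lower for 0, against 22.8% of all 11866 genes higher and 18.8% lower, 41.6% in either direction. The count of 0 lower became 1 with DESeq2 and 5 without both libraries that stand apart, where 29.3% of all genes were lower. One of the kinesins, KIF22, was lower in efficiency at an unadjusted p under 0.05, beside 23.9% of all genes tested for efficiency. The median log2 change over the tested kinesins was -0.18 in RNA, 0.87 on ribosomes and 1.03 in efficiency, beside 0.03, -0.01 and -0.05 over all genes tested. In bulk samples, fewer cells with a transcript and less transcript per cell cannot be told apart, and efficiency is a relative measure, since scaling was done library by library. A change that missed the threshold was not shown to be absent.

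**Figure D1:**
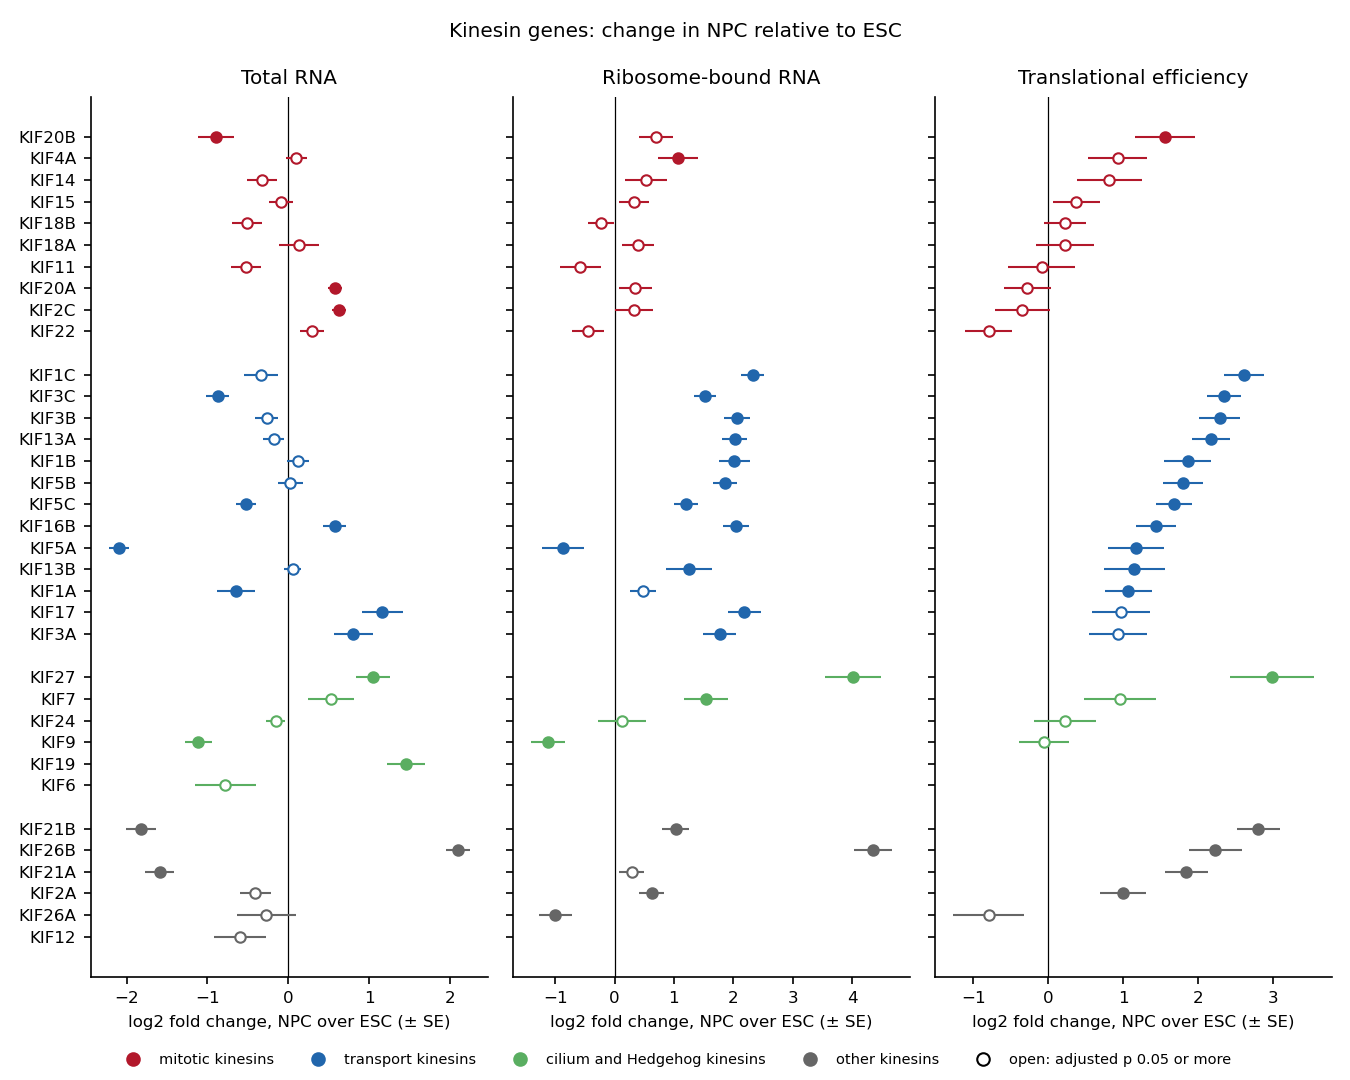
Log2 fold change of NPC over ESC with its standard error for each kinesin tested, in total RNA (left), ribosome-bound RNA (middle) and translational efficiency (right); filled points passed an adjusted p of 0.05 and colours give the class. The 13 transport kinesins lie on both sides of 0 in RNA and all lie above 0 in efficiency, whereas the 10 mitotic kinesins tested lie on both sides of 0 in all 3 panels.

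The promoters of most mitotic kinesins carry the letters of known cell cycle elements. The cell cycle genes homology region (CHR; TTTGAA or TTTAAA, searched on both strands) is bound by the DREAM and MuvB complexes, which silence late cell cycle genes in resting cells and activate them before mitosis, and the CCAAT box (searched on both strands) is bound by NF-Y. RefSeq promoters of build GRCh38.p14, from 250 bases before to 50 bases after the gene start, were matched for 32 of the 38 kinesins. Counts are of genes, and a gene with several promoter entries, as 7 kinesins had, was counted if any entry matched. Windows of 170 bases, from 150 before to 20 after the start, are shown for KIF20A and KIF2C, whose RNA rose, for KIF11, and for KIF1C and KIF3C, transport kinesins with the largest changes in efficiency. Capitals mark CHR and CCAAT letters (ATTGG is CCAAT on the other strand, TTCAAA is TTTGAA on the other strand).

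KIF20A (chr5:138178962-138179131, strand +): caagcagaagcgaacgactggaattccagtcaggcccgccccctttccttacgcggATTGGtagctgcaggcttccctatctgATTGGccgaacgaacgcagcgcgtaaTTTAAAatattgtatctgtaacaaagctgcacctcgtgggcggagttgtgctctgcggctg
KIF2C (chr1:44739687-44739856, strand +): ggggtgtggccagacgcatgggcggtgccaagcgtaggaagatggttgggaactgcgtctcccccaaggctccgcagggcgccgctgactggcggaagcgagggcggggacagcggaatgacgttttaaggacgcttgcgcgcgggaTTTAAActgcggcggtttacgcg
KIF11 (chr10:92592980-92593149, strand +): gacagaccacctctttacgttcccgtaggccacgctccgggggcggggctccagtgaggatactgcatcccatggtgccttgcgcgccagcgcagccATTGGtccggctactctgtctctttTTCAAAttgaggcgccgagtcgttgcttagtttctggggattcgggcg
KIF1C (chr17:4997800-4997969, strand +): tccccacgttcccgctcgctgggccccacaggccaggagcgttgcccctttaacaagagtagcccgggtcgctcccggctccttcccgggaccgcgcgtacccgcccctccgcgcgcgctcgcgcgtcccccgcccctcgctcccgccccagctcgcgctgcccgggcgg
KIF3C (chr2:25982478-25982647, strand -): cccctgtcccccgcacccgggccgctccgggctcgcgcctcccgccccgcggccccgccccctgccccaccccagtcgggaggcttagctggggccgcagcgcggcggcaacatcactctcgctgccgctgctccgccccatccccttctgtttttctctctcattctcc

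The windows of KIF20A and KIF11 hold a CHR match close to the start with CCAAT letters upstream of it and that of KIF2C holds a CHR match alone, whereas those of KIF1C and KIF3C hold neither. CHR letters were found in the promoters of 10 of 12 mitotic kinesins (83.3%) and 2 of 11 transport kinesins (18.2%), beside 27.9% of all 27305 genes with a promoter. In these 10 mitotic kinesins a CHR match lay within 50 bases of the start, which was so for 0 of the 11 transport kinesins and for 9.41% of all genes. CCAAT letters occurred in 9 mitotic kinesins (75.0%) and 4 transport kinesins (36.4%), or 3 (27.3%) with the first listed entry alone, beside 39.7% of all genes. Genes with both elements numbered 8 of 12 (66.7%) among mitotic and 1 of 11 (9.09%) among transport kinesins, beside 11.2% of all, and no CHR match overlapped a CCAAT match. A match is a run of letters, not a measured binding site, and these letters are short enough to occur often.

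**Figure D2:**
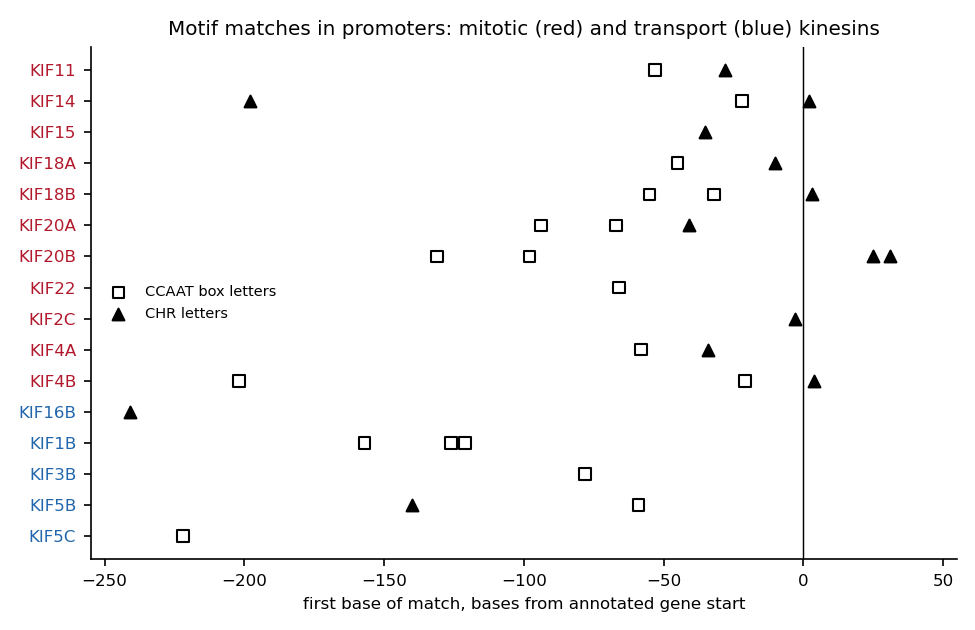
Position of each CCAAT (open squares) and CHR (filled triangles) match in kinesin promoters, in bases from the annotated gene start, for the mitotic (red names) and transport kinesins (blue names) with at least 1 match. Matches from all promoter entries of a gene share its line. CHR matches of the mitotic kinesins sit near the start, within 50 bases of it in 10 genes, and the 2 transport kinesins with a CHR match have it farther upstream.

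Among the mitotic kinesins, RNA of 2 of the 10 tested rose in NPC and that of 1 fell, beside 26.1% and 26.0% of all genes. The median log2 change of the class was 0.01. KIF4B, an intronless near-copy of KIF4A, and KIF2B, listed at 0 counts in all 12 libraries, did not pass the filter on low counts. KIF4B had 3, 17 and 10 RNA counts in the NPC libraries and 4, 0 and 1 in the ESC libraries, which overlapped, and 0, 8 and 4 ribosome-bound counts in NPC and 0, 6 and 5 in ESC. KIF20A, a motor that brings the chromosomal passenger complex to the spindle midzone for cytokinesis, had 217, 211 and 211 CPM in the NPC RNA libraries, against 141, 141 and 146 CPM in the ESC RNA libraries. Every NPC library lay above every ESC library, and the log2 fold change was 0.58 ± 0.09 (adjusted p = 0.000799). Its gene overlaps the coding gene CDC23, and with the use of strand not stated their reads cannot be fully told apart. The same limit holds for KIF15 (overlapping TMEM42), KIF7 (TICRR), KIF24 (UBAP1 and NUDT2), KIF27 (LOC105376335) and KIF2A (DIMT1). On ribosomes KIF20A had 99.7, 152 and 119.6 CPM in NPC and 120.0, 56.4 and 114 CPM in ESC. The groups overlapped there, and neither the ribosome-bound change, 0.35 ± 0.28 (adjusted p = 0.297), nor the efficiency change, -0.28 ± 0.32 (adjusted p = 0.498), passed the test.

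KIF2C, a depolymerase that frees wrongly attached kinetochores, had 217, 225 and 211 CPM in NPC RNA, against 144, 144 and 134 CPM in ESC RNA. Its RNA rose in NPC without overlap between the states (0.63 ± 0.09, adjusted p = 0.000695). Bound to ribosomes it had 123, 166 and 138 CPM in NPC and 139, 52.5 and 148 CPM in ESC, and the lowest ESC value came from RIBO_ESC replicate 2. The efficiency change of KIF2C was -0.35 ± 0.37 (adjusted p = 0.466), and without RIBO_ESC replicate 2 it was -0.68 (adjusted p = 0.00704), past the threshold (18 alternatives gave adjusted p = 0.000149 to 0.827). In the same way the efficiency of KIF20A without that library was -0.54 (adjusted p = 0.0436), with adjusted p = 0.00156 to 0.813 over the alternatives. The efficiency calls of these kinesins therefore differ with and without 1 library.

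KIF11, which slides antiparallel microtubules to separate the spindle poles and is the target of several antimitotic drugs, had 58.4, 56.9 and 61.3 CPM in NPC RNA and 68.1, 73.0 and 113 CPM in ESC RNA. All NPC values lay below all ESC values, the highest of them in RNA_ESC replicate 3, and the change of -0.52 ± 0.19 (adjusted p = 0.0507) just missed the threshold. With the replicate number as a block it was -0.49 (adjusted p = 0.0232) and without RNA_ESC replicate 3 it was -0.26 (adjusted p = 0.000764), with adjusted p = 0.000764 to 0.146 over the alternatives. Ribosome-bound KIF11 was at 75.5, 91.5 and 58.8 CPM in NPC and 151, 48.1 and 135 CPM in ESC, with overlap through the low value in RIBO_ESC replicate 2. The ribosome-bound change was -0.58 ± 0.35 (adjusted p = 0.172) over all libraries and -0.95 (adjusted p = 1.44e-07) without that library, with adjusted p = 1.44e-07 to 0.477 over the alternatives. Its efficiency change was -0.09 ± 0.44 (adjusted p = 0.881), and -0.75 (adjusted p = 0.000152) without both libraries that stand apart, with adjusted p = 0.000152 to 0.986 over the alternatives. KIF18B, which controls the length of astral microtubules, had an RNA change of -0.51 ± 0.19 (adjusted p = 0.0503), -0.48 (adjusted p = 0.0276) with the block and -0.70 (adjusted p = 2.76e-16) without RNA_ESC replicate 3 (adjusted p = 2.76e-16 to 0.141 over the alternatives). Its ribosome-bound change was -0.22 ± 0.22 (adjusted p = 0.391), and -0.41 (adjusted p = 0.0266) without RIBO_ESC replicate 2 (adjusted p = 0.0266 to 0.904 over the alternatives).

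KIF20B, a motor of cytokinesis, was low in NPC in one assay and high in the other. In RNA it had 15.6, 18.9 and 21.7 CPM in NPC and 29.4, 28.4 and 47.0 CPM in ESC, with the NPC libraries below the ESC libraries. On ribosomes it had 75.5, 80.0 and 64.3 CPM in NPC and 56.6, 23.0 and 54.2 CPM in ESC, with the NPC libraries above. Its RNA fell, with a log2 change of -0.90 ± 0.23 (adjusted p = 0.0112; adjusted p = 0.0511 without RNA_NPC replicate 1, adjusted p = 8.04e-09 to 0.0511 over the alternatives). The ribosome-bound change, 0.70 ± 0.29 (adjusted p = 0.0530), did not pass the test (0.39, adjusted p = 0.0314 without RIBO_ESC replicate 2, adjusted p = 0.0171 to 0.139 over the alternatives). Its efficiency rose by 1.55 ± 0.40 (adjusted p = 0.00568), the one called rise in efficiency among the 10 mitotic kinesins tested under the main settings. The efficiency change of KIF20B was 1.26 (adjusted p = 0.00529) without RIBO_ESC replicate 2.

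KIF4A, a chromokinesin that shapes condensed chromosomes and the midzone, had 96.2, 88.7 and 99.1 CPM in NPC ribosome-bound RNA, against 66.3, 18.6 and 48.8 CPM in ESC. Under the main settings it was the one mitotic kinesin with a called ribosome-bound change (1.07 ± 0.34, adjusted p = 0.0161). The change was 0.71 (adjusted p = 8.38e-05) without RIBO_ESC replicate 2. Without the filter on low counts KIF20B, at 0.68 (adjusted p = 0.0171), and KIF11, at -0.60 (adjusted p = 0.0401), were called as well. The efficiency change of KIF4A, 0.92 ± 0.39 (adjusted p = 0.0707), did not pass the test. It passed with the replicate block, at 1.05 (adjusted p = 0.0296), without RIBO_ESC replicate 1, at 1.30 (adjusted p = 0.0121), and without both libraries that stand apart, at 0.42 (adjusted p = 0.0220), with adjusted p = 0.0121 to 0.128 over the alternatives. Its RNA change was 0.10 ± 0.13 (adjusted p = 0.534), and 0.23 (adjusted p = 0.00197) without RNA_ESC replicate 3 (adjusted p = 0.00197 to 0.967 over the alternatives). Reads of KIF4A and of its copy KIF4B may be divided between them by the authors' counting, so both levels are uncertain. KIF22, a chromokinesin that pushes chromosome arms from the poles, stood nearest to a fall in efficiency, at -0.80 ± 0.32 (adjusted p = 0.0539). Without RIBO_ESC replicate 2 it was -1.04 (adjusted p = 0.00154), with adjusted p = 1.94e-06 to 0.145 over the alternatives. The RNA change of KIF22 was 0.30 ± 0.15 (adjusted p = 0.129), and 0.14 (adjusted p = 0.0406) without RNA_ESC replicate 3 (adjusted p = 0.0406 to 0.252 over the alternatives). Its ribosome-bound change was -0.45 ± 0.27 (adjusted p = 0.163), and -0.71 (adjusted p = 1.36e-05) without RIBO_ESC replicate 2 (adjusted p = 1.36e-05 to 0.452 over the alternatives). The remaining mitotic kinesins tested, KIF14 of the cleavage furrow, KIF15, which can stand in for KIF11, and KIF18A, which damps chromosome movement at metaphase, passed no test, with log2 changes of -0.33, -0.09 and 0.13 in RNA, 0.53, 0.33 and 0.39 on ribosomes and 0.81, 0.37 and 0.22 in efficiency. KIF18A alone of them gained a call in RNA without RNA_ESC replicate 3, at 0.49 (adjusted p = 4.94e-05; adjusted p = 4.94e-05 to 0.895 over the alternatives). The class median was 0.34 for ribosome-bound RNA and 0.22 for efficiency. The ribosome-bound median was 0.07 without RIBO_ESC replicate 2, with 2 higher and 3 lower, beside 34.8% and 33.4% of all genes. Without both libraries that stand apart the efficiency median was -0.19, with 2 higher and 4 lower, beside 29.6% and 29.3% of all genes.

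**Figure D3:**
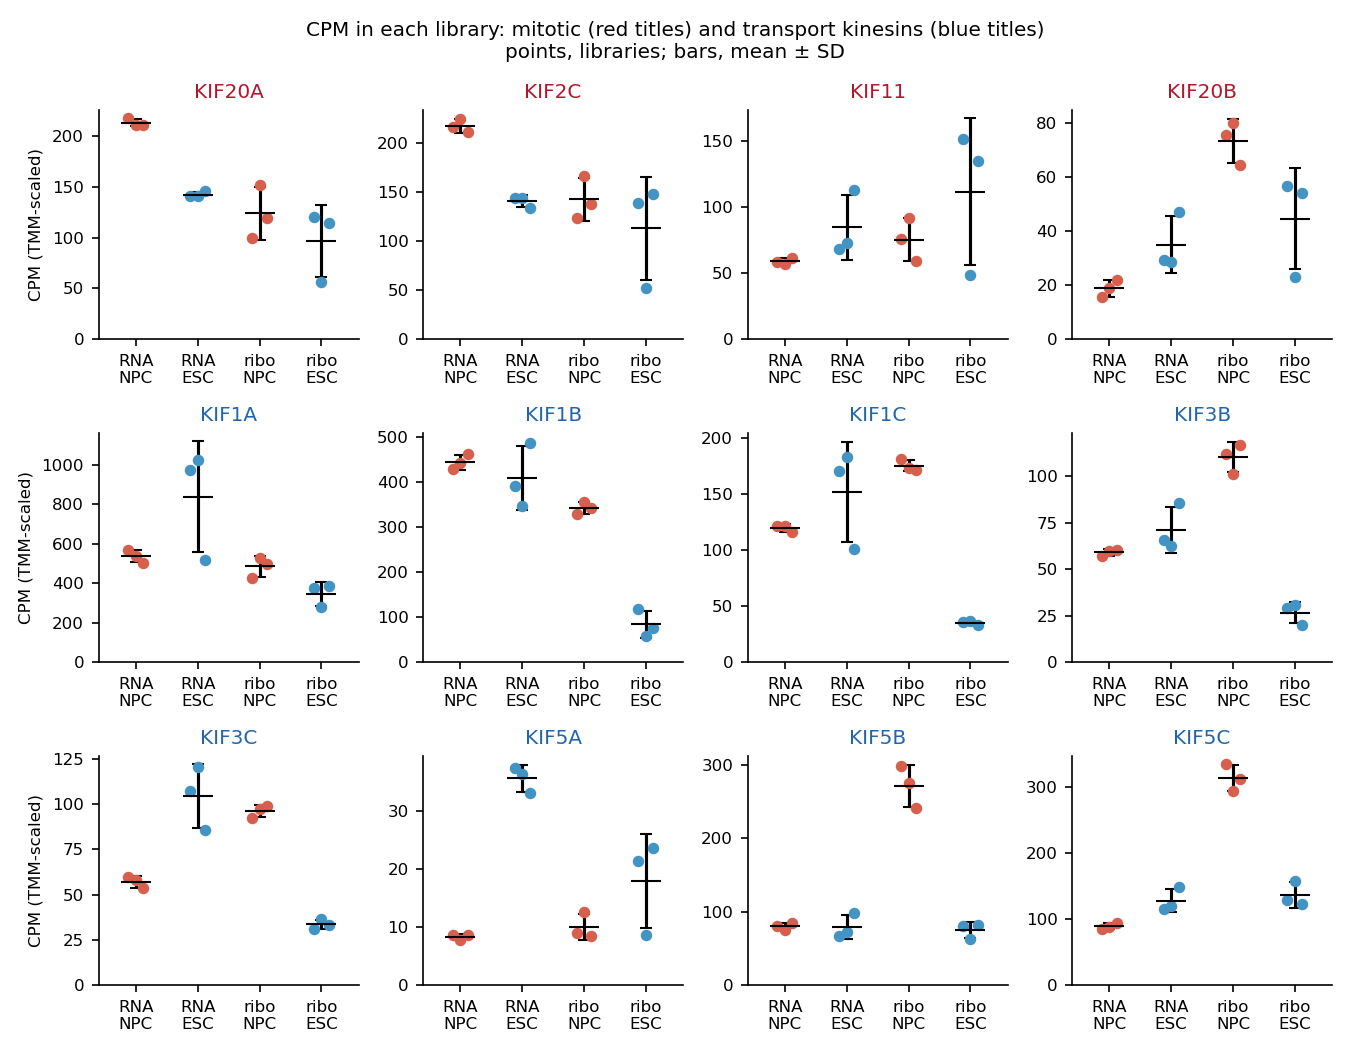
TMM-scaled CPM of 4 mitotic kinesins (red titles) and 8 transport kinesins (blue titles) in each library, with NPC and ESC side by side in total RNA and in ribosome-bound RNA; points are libraries and bars give the mean and SD of 3. The ribosome-bound NPC points lie above all ESC points for the mitotic KIF20B and for KIF1A, KIF1B, KIF1C, KIF3B, KIF3C, KIF5B and KIF5C. Those of KIF20A, KIF2C and KIF11 and of the transport kinesin KIF5A overlap.

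In RNA, 3 of the 13 transport kinesins were higher and 4 lower, beside 26.1% and 26.0% of all genes, with a median log2 change of -0.18. On ribosomes 11 of the 13 were higher in NPC and 1 was lower, beside 31.5% and 30.2% of all genes, with a median of 1.86. The NPC libraries lay above every ESC library for 12 of the 13, beside 4283 of all 12250 genes. Efficiency rose for 11 of 13 and fell for 0, beside 22.8% and 18.8% of all genes, with a median of 1.68. All 13 were higher at an unadjusted p under 0.05, beside 26.4% of all genes tested for efficiency. The 11 neuron markers together had 186 to 211 CPM on ribosomes in NPC and 206 to 302 CPM in ESC, with 0 to 1 of them at 0 counts in NPC libraries and 2 to 4 in ESC libraries. Without TUBB3, the tubulin with the largest fall of the list on ribosomes, the remaining 10 markers had 161 to 190.4 CPM in NPC and 140.1 to 170.0 CPM in ESC. In RNA these 10 markers had 72.0 to 75.7 CPM in NPC and 147 to 173 CPM in ESC. Of 6 neuron markers tested, 2 were higher on ribosomes, GAP43 (1.57 ± 0.23, adjusted p = 0.000103) and SYT1 (0.49 ± 0.19, adjusted p = 0.0442). The 2 that were lower were TUBB3 (-2.14 ± 0.26, adjusted p = 3.45e-05) and INA (-0.92 ± 0.22, adjusted p = 0.00312). In efficiency 2 were higher, GAP43 (1.63 ± 0.27, adjusted p = 0.000222) and SYT1 (2.13 ± 0.27, adjusted p = 2.27e-05), and 0 lower. Their part in the transport kinesin result was not tested. KIF17 (0.97 ± 0.38, adjusted p = 0.0527) and KIF3A (0.93 ± 0.39, adjusted p = 0.0678), whose efficiency did not pass, were the kinesins of the class with the largest rises in RNA. The efficiency change of KIF17 was 1.19 (adjusted p = 0.00294) without RNA_ESC replicate 3 and 1.06 (adjusted p = 0.00521) without both libraries that stand apart (adjusted p = 0.00294 to 0.114 over the alternatives). For KIF3A it passed with the replicate block (adjusted p = 0.0464) and without RNA_ESC replicate 1 (adjusted p = 0.0471) or 2 (adjusted p = 0.0398), with adjusted p = 0.0398 to 0.258 over the alternatives.

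The conventional kinesin heavy chains KIF5A, KIF5B and KIF5C pair with kinesin light chains and carry mitochondria, vesicles and RNA granules, KIF5B in most cells and KIF5A and KIF5C mainly in neurons. KIF5B had 80.3, 75.3 and 84.6 CPM in NPC RNA, against 66.5, 71.9 and 97.5 CPM in ESC RNA, and 298, 274 and 241 CPM in NPC ribosome-bound RNA, against 80.1, 62.0 and 81.2 CPM in ESC. Its RNA overlapped between the states (0.03 ± 0.16, adjusted p = 0.903) while its ribosome-bound RNA was 3.63-fold higher in NPC (1.86 ± 0.21, adjusted p = 1.71e-05). The efficiency of KIF5B rose by 1.79 ± 0.26 (adjusted p = 9.07e-05). Without RNA_ESC replicate 3, the ESC library with the highest RNA value, its RNA change was 0.21 (adjusted p = 0.00700; adjusted p = 0.00700 to 0.977 over the alternatives).

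KIF5C had 84.6, 88.4 and 94.0 CPM in NPC RNA and 116, 119.8 and 148 CPM in ESC RNA, and its RNA fell in NPC, with a log2 change of -0.52 ± 0.12 (adjusted p = 0.00864). Its ribosome-bound level was 334, 294 and 311 CPM in NPC and 128, 158 and 122 CPM in ESC. It rose there 2.30-fold (adjusted p = 0.000322), opposite to its RNA and without overlap in either assay, and its efficiency change was 1.68 ± 0.24 (adjusted p = 7.04e-05). An antisense gene, KIF5C-AS1, shares its locus, and reads of the pair cannot be told apart without strand.

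KIF5A was the transport kinesin with the largest fall in RNA. It had 8.60, 7.78 and 8.71 CPM in NPC RNA and 37.6, 36.5 and 33.1 CPM in ESC RNA, a log2 change of -2.09 ± 0.13 (adjusted p = 7.09e-06). On ribosomes it had 9.04, 12.6 and 8.43 CPM in NPC and 21.4, 8.67 and 23.7 CPM in ESC, where the groups overlapped through the low value of RIBO_ESC replicate 2. KIF5A was the only transport kinesin called lower on ribosomes (-0.87 ± 0.35, adjusted p = 0.0473). That call was lost with the replicate block (adjusted p = 0.122) and on leaving out RIBO_NPC replicate 1, 2 or 3 or RIBO_ESC replicate 1 or 3, and the change stood at -1.19 (adjusted p = 5.56e-05) without RIBO_ESC replicate 2 (adjusted p = 5.56e-05 to 0.197 over the alternatives). Its efficiency was nonetheless higher, at 1.17 ± 0.37 (adjusted p = 0.0208), and 0.95 (adjusted p = 0.0889) without RIBO_NPC replicate 2 (adjusted p = 0.00210 to 0.0889 over the alternatives). Of the 3 conventional heavy chains, 2 fell in RNA and 1 did not pass, and the efficiency of all 3 was higher in NPC.

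The kinesin-3 motors KIF1A, KIF1B and KIF1C carry vesicles. KIF1A, which moves synaptic vesicle precursors and dense core vesicles, had 566, 538 and 504 CPM in NPC RNA and 972, 1025 and 517 CPM in ESC RNA. RNA_ESC replicate 3 was the low ESC library and fell among the NPC values. The RNA change of -0.64 ± 0.23 (adjusted p = 0.0479) was -0.90 (adjusted p = 1.80e-26) without that library and lost its call on leaving out any of the other 5 RNA libraries, under scaling to total counts and without the filter on low counts (adjusted p = 1.80e-26 to 0.133 over the alternatives). On ribosomes KIF1A had 428, 529 and 498 CPM in NPC and 377, 278 and 387 CPM in ESC. The groups did not overlap, but the change of 0.48 ± 0.22 (adjusted p = 0.0791) did not pass the test, and it was 0.33 (adjusted p = 0.0312) without RIBO_ESC replicate 2 (adjusted p = 0.0312 to 0.209 over the alternatives). Efficiency of KIF1A rose by 1.07 ± 0.31 (adjusted p = 0.0124).

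KIF1B, a carrier of mitochondria and of synaptic vesicle precursors, had 428, 443 and 461 CPM in NPC RNA, against 392, 347 and 487 CPM in ESC RNA. On ribosomes the values were 328, 355 and 342 CPM in NPC and 117, 59.0 and 76.6 CPM in ESC. The RNA groups overlapped (0.12 ± 0.13, adjusted p = 0.467) and the ribosome-bound groups did not, with a 4.05-fold rise in NPC (2.02 ± 0.26, adjusted p = 4.64e-05). The efficiency change was 1.85 ± 0.31 (adjusted p = 0.000253). Without RNA_ESC replicate 3 the RNA change was 0.27 (adjusted p = 0.000118; adjusted p = 0.000118 to 0.916 over the alternatives).

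KIF1C, which carries vesicles along the microtubules of many cell types and has been linked to Golgi traffic, had the largest efficiency change of the transport class. It had 122, 122 and 116 CPM in NPC RNA and 171, 183 and 101 CPM in ESC RNA, with the lowest ESC value in RNA_ESC replicate 3. On ribosomes it had 181, 173 and 172 CPM in NPC and 35.8, 36.4 and 32.6 CPM in ESC, 5.01-fold more in NPC (2.32 ± 0.19, adjusted p = 1.81e-06). The RNA change was -0.34 ± 0.21 (adjusted p = 0.206), and -0.56 (adjusted p = 1.19e-13) without that library (adjusted p = 1.19e-13 to 0.428 over the alternatives), and the efficiency change was 2.61 ± 0.27 (adjusted p = 4.70e-06). KIF1C-AS1 lies antisense to it.

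The kinesin-2 motors KIF3A and KIF3B form a heterotrimer with KIFAP3 that drives intraflagellar transport in cilia and vesicle transport in axons, and KIF3C is an alternative partner of KIF3A. KIF3B had 57.0, 59.8 and 60.5 CPM in NPC RNA, against 65.5, 62.3 and 85.5 CPM in ESC RNA, and 112, 101 and 117 CPM in NPC ribosome-bound RNA, against 28.9, 30.8 and 20.2 CPM in ESC. NPC values were thus the lower ones in RNA (-0.27 ± 0.14, adjusted p = 0.149) and the higher ones on ribosomes (2.06 ± 0.22, adjusted p = 1.13e-05), and efficiency rose by 2.28 ± 0.27 (adjusted p = 1.47e-05). KIF3C had 59.6, 58.3 and 53.4 CPM in NPC RNA, against 107, 120.3 and 85.6 CPM in ESC RNA, and 92.3, 97.4 and 98.9 CPM in NPC ribosome-bound RNA, against 31.1, 36.4 and 32.9 CPM in ESC. Both of its changes were called, the RNA lower (-0.87 ± 0.14, adjusted p = 0.00142) and the ribosome-bound RNA higher (1.53 ± 0.19, adjusted p = 3.16e-05), and efficiency rose by 2.34 ± 0.22 (adjusted p = 2.62e-06).

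KIF3A, the shared subunit, had 19.0, 17.5 and 19.2 CPM in NPC RNA and 8.44, 8.34 and 15.1 CPM in ESC RNA. Its RNA was higher in NPC, with a log2 change of 0.81 ± 0.24 (adjusted p = 0.0221), 1.14 (adjusted p = 3.09e-16) without RNA_ESC replicate 3, and it lost its call on leaving out any other RNA library (adjusted p = 3.09e-16 to 0.106 over the alternatives). The ribosome-bound values were 46.5, 54.5 and 38.3 CPM in NPC and 16.7, 7.81 and 15.4 CPM in ESC, a rise of 1.77 ± 0.28 (adjusted p = 0.000193). KIF17, a homodimeric kinesin-2 found in dendrites and cilia, had 12.9, 15.9 and 13.5 CPM in NPC RNA and 7.46, 7.55 and 3.83 CPM in ESC RNA (1.16 ± 0.25, adjusted p = 0.00591). Its ribosome-bound RNA was 19.0, 19.4 and 17.8 CPM in NPC and 4.71, 3.04 and 4.32 CPM in ESC (2.18 ± 0.28, adjusted p = 4.31e-05). For these 2 motors RNA and ribosome-bound RNA rose together.

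KIF16B, which moves early endosomes, had 23.7, 19.8 and 23.1 CPM in NPC RNA and 13.3, 14.7 and 16.6 CPM in ESC RNA. It rose in RNA (0.58 ± 0.14, adjusted p = 0.0102), a call lost without RNA_NPC replicate 1 (adjusted p = 0.0518) or RNA_ESC replicate 1 (adjusted p = 0.0643), and adjusted p = 1.09e-08 to 0.0643 over the alternatives. Its ribosome-bound rise was larger (2.05 ± 0.22, adjusted p = 1.15e-05), and its efficiency rose by 1.43 ± 0.27 (adjusted p = 0.000604). KIF13A, a carrier of mannose 6-phosphate receptor vesicles, did not pass in RNA (-0.18 ± 0.13, adjusted p = 0.266) and rose on ribosomes (2.03 ± 0.21, adjusted p = 1.07e-05) and in efficiency (2.16 ± 0.25, adjusted p = 1.28e-05). KIF13B, which carries phosphoinositide and receptor cargo, rose on ribosomes by 1.25 ± 0.39 (adjusted p = 0.0151), a call lost without RIBO_NPC replicate 2 or RIBO_ESC replicate 3 (adjusted p = 0.000135 to 0.0524 over the alternatives). Without RIBO_ESC replicate 2 KIF13B rose there by 0.88 (adjusted p = 0.00199). Its efficiency rose by 1.14 ± 0.41 (adjusted p = 0.0348) and lost its call on leaving out any of 7 libraries (adjusted p = 0.00232 to 0.0883 over the alternatives).

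The shares of kinesin counts taken by the classes are parts of a whole, so that one class's share moves with the level of the other. Transport kinesins made up 65.0 ± 1.87% of the kinesin counts in NPC ribosome-bound libraries and 49.0 ± 7.53% in ESC ribosome-bound libraries (SD, n = 3 each). Their share of the RNA counts was 57.1 ± 0.135% in NPC and 62.9 ± 2.53% in ESC. Mitotic kinesins made up 25.5 ± 1.92% in NPC and 40.6 ± 7.90% in ESC on ribosomes, and 34.0 ± 0.246% in NPC and 25.9 ± 2.27% in ESC in RNA. The NPC and ESC libraries did not overlap in any of these shares. Summed over the class, transport kinesins had 2008 ± 39.5 CPM in NPC and 810.0 ± 91.6 CPM in ESC on ribosomes, beside 1544 ± 8.90 CPM in NPC and 1949 ± 217 CPM in ESC in RNA. Mitotic kinesins had 789 ± 96.5 CPM in NPC and 709 ± 280 CPM in ESC on ribosomes, where the states overlapped, and 918 ± 4.31 CPM in NPC and 798 ± 16.5 CPM in ESC in RNA. No test was run between the classes, whose members were chosen by role with earlier results of these data known.

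**Figure D4:**
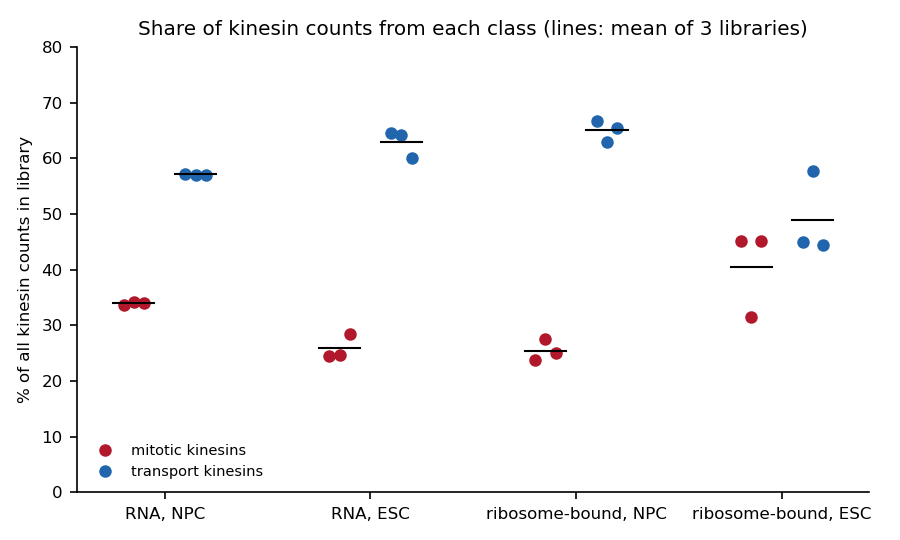
Percent of all kinesin counts in a library that came from mitotic (red) and transport kinesins (blue), for RNA and ribosome-bound RNA of NPC and ESC; points are libraries and lines are means of 3. The transport share on ribosomes is 63.0% to 66.7% in NPC and 44.4% to 57.7% in ESC, and the highest ESC point is RIBO_ESC replicate 2.

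The level of efficiency within a state is the log2 ratio of the mean CPM on ribosomes to that in RNA. Gene length cancels in it only where both assays cover the same part of a transcript. The isolation of ribosomes was not stated, so whether levels can be compared between genes or classes is not known. The transport class had a median of 0.55 in NPC and -1.27 in ESC, and the mitotic class had 0.23 in NPC and -0.15 in ESC, beside -0.23 in NPC and -0.37 in ESC over all genes tested. Levels above 0 were found for 9 of 13 transport kinesins in NPC and 3 of 13 in ESC, for 6 of 10 mitotic kinesins in NPC and 4 of 10 in ESC, and for 41.6% of all genes tested in NPC and 39.2% in ESC. The ESC means include RIBO_ESC replicate 2, where mitotic kinesins were low (median log2 difference -1.05), and levels were not computed without it. Without both libraries that stand apart the median efficiency change was -0.19 for the mitotic class, against 0.22. For the transport class it was 1.46, against 1.68. KIF1C was at 0.55 in NPC and -2.10 in ESC, KIF1B at -0.38 in NPC and -2.27 in ESC, and KIF5B at 1.75 in NPC and -0.08 in ESC.

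Among the kinesins of cilia and Hedgehog signalling, the primary cilium being the organelle through which neural progenitors receive Hedgehog ligands, 2 of 6 were higher and 1 lower in RNA, beside 26.1% and 26.0% of all genes. KIF27, a paralogue of the Hedgehog regulator KIF7, had 9.47, 9.90 and 9.93 CPM in NPC RNA and 4.09, 3.75 and 6.34 CPM in ESC RNA (1.05 ± 0.21, adjusted p = 0.00375). On ribosomes it had 31, 47 and 45 counts in NPC libraries and 3, 2 and 1 counts in ESC libraries. The ratio of its summed ribosome-bound counts, scaled to library size, was 16.6 with a 95% interval of 7.41 to 46.1 (exact binomial, counting error only), and its efficiency rose by 2.98 ± 0.56 (adjusted p = 0.000642). The gene overlaps the coding gene LOC105376335. KIF7, which sits at the cilium tip and tunes GLI activity, had 22.5, 22.7 and 22.8 CPM in NPC RNA and 18.0, 20.3 and 8.59 CPM in ESC RNA, with 42.3, 51.1 and 50.1 CPM in NPC and 25.1, 5.20 and 17.5 CPM in ESC on ribosomes. It rose on ribosomes by 1.54 ± 0.37 (adjusted p = 0.00351), and by 1.16 (adjusted p = 9.90e-07) without RIBO_ESC replicate 2. KIF7 did not pass the threshold in RNA (0.53 ± 0.28, adjusted p = 0.151; 0.24, adjusted p = 0.0222, without RNA_ESC replicate 3, adjusted p = 0.0222 to 0.253 over the alternatives) or efficiency (0.95 ± 0.48, adjusted p = 0.123). The efficiency change of KIF7 was 1.21 (adjusted p = 0.0177) without RNA_ESC replicate 3, 1.39 (adjusted p = 0.0341) without RIBO_ESC replicate 1 and 0.87 (adjusted p = 0.000392) without both libraries that stand apart, with adjusted p = 0.000392 to 0.255 over the alternatives.

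KIF9, a kinesin of motile cilia and, in mouse, of sperm flagella, was lower in NPC in both assays. It had 1.80, 2.01 and 1.87 CPM in NPC RNA and 4.65, 4.07 and 3.63 CPM in ESC RNA (-1.11 ± 0.17, adjusted p = 0.000900). Its ribosome-bound RNA was 4.52, 5.05 and 5.01 CPM in NPC and 10.1, 10.4 and 11.3 CPM in ESC (-1.12 ± 0.29, adjusted p = 0.00541), so its efficiency change was close to 0 (-0.06 ± 0.33, adjusted p = 0.894). KIF9-AS1 shares the KIF9 locus. KIF19, which trims the length of motile cilia in mouse, had 2.67, 2.97 and 2.47 CPM in NPC RNA and 1.28, 0.958 and 0.716 CPM in ESC RNA (1.45 ± 0.23, adjusted p = 0.00131), and only 12, 9 and 17 counts in NPC libraries and 5, 1 and 2 in ESC libraries on ribosomes, a ratio of 3.85 (1.77 to 9.54). KIF24, which restrains cilium assembly, passed no test, with log2 changes of -0.15 in RNA, 0.12 on ribosomes and 0.22 in efficiency. KIF6 did not pass in RNA (-0.78 ± 0.38, adjusted p = 0.120) and had 11 counts in NPC and 14 in ESC on ribosomes, too few to test.

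Of the other kinesins, KIF26B, an unconventional member without known motor activity that takes part in cell adhesion and in development of the kidney in mouse, had the largest rise of the family in RNA and on ribosomes. It had 28.2, 26.7 and 27.0 CPM in NPC RNA and 6.85, 6.95 and 5.32 CPM in ESC RNA (2.10 ± 0.15, adjusted p = 1.67e-05). Ribosome-bound KIF26B had 95, 116 and 166 counts in NPC libraries and 6, 2 and 7 counts in ESC libraries, a ratio of 20.3 (12.2 to 36.7). Its efficiency rose by 2.23 ± 0.35 (adjusted p = 0.000153). Its paralogue KIF26A had 46.2, 44.1 and 36.9 CPM in NPC RNA and 61.7, 69.3 and 22.3 CPM in ESC RNA, and 7.74, 12.6 and 10.7 CPM in NPC and 22.0, 14.7 and 25.1 CPM in ESC on ribosomes. KIF26A was lower on NPC ribosomes (-0.998 ± 0.28, adjusted p = 0.00870) and did not pass in RNA (-0.27 ± 0.36, adjusted p = 0.562; -0.63, adjusted p = 3.63e-12, without RNA_ESC replicate 3, adjusted p = 3.63e-12 to 0.999 over the alternatives), so the paralogues moved in opposite directions on ribosomes. The efficiency change of KIF26A was -0.80 ± 0.47 (adjusted p = 0.188), and -0.62 (adjusted p = 0.0253) without both libraries that stand apart, with adjusted p = 0.0253 to 0.353 over the alternatives.

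KIF21A and KIF21B, which slow microtubule growth in axons and dendrites, had the largest RNA falls of the family after KIF5A. KIF21B had 30.7, 28.6 and 25.5 CPM in NPC RNA and 112, 114 and 73.4 CPM in ESC RNA (-1.82 ± 0.19, adjusted p = 0.000128), and 29.4, 30.3 and 35.1 CPM in NPC and 12.3, 15.6 and 18.3 CPM in ESC on ribosomes (1.03 ± 0.23, adjusted p = 0.00202). Its directions were opposite in the assays, and its efficiency change of 2.80 ± 0.28 (adjusted p = 4.44e-06) was the largest of the family after KIF27. KIF21A had 16.6, 15.9 and 16.5 CPM in NPC RNA and 43.8, 40.8 and 63.0 CPM in ESC RNA (-1.59 ± 0.18, adjusted p = 0.000218), and 62.0, 63.7 and 57.7 CPM in NPC and 58.1, 36.9 and 54.0 CPM in ESC on ribosomes (0.29 ± 0.21, adjusted p = 0.248). Its ribosome-bound groups overlapped, and its efficiency rose by 1.84 ± 0.29 (adjusted p = 0.000163). KIF2A, a depolymerase of spindle poles and of axon branches, did not pass in RNA (-0.41 ± 0.19, adjusted p = 0.113; -0.38, adjusted p = 0.0500, with the replicate block, just under the threshold, adjusted p = 0.0500 to 0.270 over the alternatives). It rose on ribosomes (0.63 ± 0.21, adjusted p = 0.0229). That call was lost with the replicate block, at 0.64 (adjusted p = 0.0661), and without RIBO_NPC replicate 1 or 2 or RIBO_ESC replicate 1 (adjusted p = 0.00868 to 0.0826 over the alternatives). It also rose in efficiency (0.99 ± 0.31, adjusted p = 0.0167; adjusted p = 0.0501 without RIBO_NPC replicate 2, adjusted p = 0.00409 to 0.0501 over the alternatives). KIF12 did not pass in RNA (-0.60 ± 0.32, adjusted p = 0.156; -0.83, adjusted p = 0.0132, without RNA_ESC replicate 3, adjusted p = 0.0132 to 0.577 over the alternatives). Its ribosome-bound counts, 5, 6 and 23 in the NPC libraries and 3, 2 and 8 in the ESC libraries, overlapped and were too few to test. KIF25 had 5, 4 and 14 RNA counts in NPC libraries and 8, 5 and 1 in ESC libraries and was not tested in any assay.

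The length of the gene moved with the efficiency change over the whole table, so it is given beside the classes. Over all genes with a RefSeq span, the median log2 efficiency change was -0.54 for spans up to 10 kb, -0.12 from 20 to 40 kb, 0.07 from 40 to 80 kb, 0.37 from 80 to 160 kb and 0.80 above 160 kb. The median span was 57.4 kb for transport kinesins, 45.1 kb for mitotic kinesins and 33.3 kb for all genes tested. Within spans of 20 to 40 kb, efficiency rose for 2 of 2 transport and 0 of 2 mitotic kinesins, beside 18.1% of all genes. Between 40 and 80 kb it rose for 3 of 5 transport and 1 of 3 mitotic kinesins, beside 26.0%, and between 80 and 160 kb for 2 of 2 transport and 0 of 3 mitotic kinesins, beside 34.2%. The 4 transport kinesins above 160 kb were all higher, beside 45.9% of all genes of that span. KIF1C, with the largest transport change, spans 30452 bases at chr17:4997950-5028401, and KIF16B, the longest transport kinesin, spans 301345 bases at chr20:16272104-16573448 (GRCh38.p14). The part of gene span in the result was not tested.

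**Figure D5:**
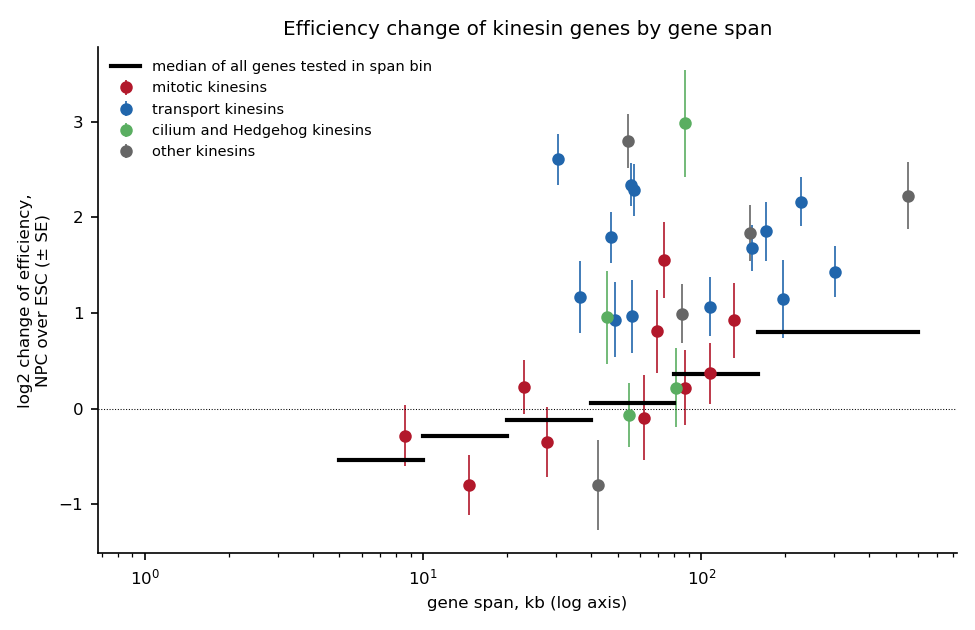
Log2 change of translational efficiency (NPC over ESC, ± SE) of each tested kinesin against the span of its gene in kb (log axis), coloured by class, with black lines at the median of all genes in each span bin. The medians climb from -0.54 to 0.80 with span, and all 13 transport kinesins lie above the line of their bin.

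The proteins that work with each class were counted from lists chosen by role. Of all genes tested, 26.1% were higher and 26.0% lower in RNA, and 31.5% and 30.2% on ribosomes. In efficiency the shares were 22.8% and 18.8%. Of 21 spindle and cytokinesis partners, 4 were higher and 4 lower in RNA (median -0.01), and of 20 tested on ribosomes 4 were higher and 7 lower (median 0.01). Their efficiency rose for 4 and fell for 4 of 20, with a median of -0.29. On ribosomes the largest rises were MKI67, the coat of mitotic chromosomes (2.16 ± 0.30, adjusted p = 9.12e-05), and NUMA1, which focuses spindle poles (1.81 ± 0.24, adjusted p = 5.15e-05), and the largest falls were AURKA, a spindle pole kinase (-1.18 ± 0.23, adjusted p = 0.000949), and BIRC5, a passenger complex subunit (-1.05 ± 0.20, adjusted p = 0.000792). CENPE, a kinetochore kinesin outside the KIF symbols, was, like KIF20B, lower in RNA (-0.91 ± 0.21, adjusted p = 0.00671) and higher in efficiency (2.39 ± 0.38, adjusted p = 0.000152). KIFC1, another kinesin of the list, was instead higher in RNA (0.42 ± 0.14, adjusted p = 0.0350). Its efficiency change did not pass (-0.52 ± 0.35, adjusted p = 0.236). Without both libraries that stand apart, 4 partners were higher and 11 lower in efficiency, beside 29.6% and 29.3% of all genes. Leaving out RNA_ESC replicate 3 gave 7 partners higher and 8 lower in RNA, beside 6777 and 6722 of all 19340 genes.

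Of 24 motor adaptors and light chains, 6 were higher and 8 lower in RNA (median -0.01). On ribosomes 11 of 23 were higher and 6 lower (median 0.47), and efficiency rose for 10 and fell for 1 (median 0.56). Without both libraries that stand apart, efficiency rose for 12 and fell for 5, beside 29.6% and 29.3% of all genes. The largest efficiency rises were TRAK1, which links KIF5 to mitochondria (2.44 ± 0.26, adjusted p = 5.48e-06), and PLEKHM2, which links KIF5 to lysosomes (2.14 ± 0.28, adjusted p = 2.95e-05), and the fall was KLC4, a kinesin light chain (-0.89 ± 0.32, adjusted p = 0.0355). KIFAP3, the cargo subunit of KIF3A and KIF3B, rose in RNA (1.09 ± 0.24, adjusted p = 0.00569). It did not pass on ribosomes (0.35 ± 0.50, adjusted p = 0.557) or in efficiency (-0.79 ± 0.59, adjusted p = 0.293). MAP7, which recruits KIF5 to microtubules, fell in RNA (-2.59 ± 0.12, adjusted p = 2.07e-06) and on ribosomes (-1.80 ± 0.23, adjusted p = 4.08e-05). The efficiency of MAP7 was higher in NPC (0.74 ± 0.25, adjusted p = 0.0276).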

How the data were processed

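Counts of reads per gene were used as deposited by the authors, whole numbers without normalization, 1 column per library. Per the submitters' processing notes, the tools were STAR 2.7.1a, Bowtie 1.2, featureCounts 1.6.4 and cutadapt 1.18, on GRCh38 (hg38). Their roles, the annotation, strand use and the handling of multimapping reads are not given in the sources, so values of overlapping, antisense and copied genes are uncertain.

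NPC were tested against ESC over all genes with edgeR 4.0.16 in R 4.3.3 (TMM, filterByExpr, robust quasi-likelihood test, Benjamini-Hochberg adjustment, threshold 0.05), per assay, and for efficiency as the interaction over all 12 libraries. DESeq2 1.42.0 was an alternative. Tests were checked on simulated data. A gene at 0 counts could have been present at up to 3 counts per library, 0.0854 to 0.154 CPM for RNA and 0.674 to 1.24 CPM for ribosome-bound RNA. Levels of efficiency used 0.5 added to each mean CPM. Figures used matplotlib 3.10.9.

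The members and lists were chosen with earlier results of these data known. Values in all libraries are given for KIF11, KIF20A, KIF1A, KIF1B, KIF5A, KIF5B and KIF5C. They are also given, per class, for up to 3 largest rises and falls past the threshold in each comparison. Of each partner list, up to 2 are named per direction. CENPE, KIFC1, KIFAP3 and MAP7 were added after their values were seen where outside that rule. In RNA, same-numbered libraries of the states deviated together (r = 0.33, 0.22 and 0.54), the sole ground for pairing, since the labels give only a number; replicates 1 and 2 correlated as well across numbers (r = 0.35 and 0.22).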

Additional observations from a re-analysis of the deposited data

How the results depend on the processing

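Directions and calls were recomputed for each kinesin with DESeq2, with DESeq2's size factors or total counts in edgeR, without the filter on low counts, with the replicate number as a block, and on leaving out each library in turn. Of the recomputed fold changes, 338 in RNA, 328 on ribosomes and 534 in efficiency kept their direction and their side of the threshold, 15, 12 and 9 lost a call, and 22, 8 and 22 gained one. Changes of direction were seen only for kinesins with no call under the main settings. For efficiency, DESeq2 and its size factors each called 1 kinesin lower, against 0, and leaving out RNA_ESC replicate 3 and RIBO_ESC replicate 2 together called 5 lower. Of all genes, these settings called 2864, 2497 and 3611 lower, against 2232. Leaving out 1 library gave 6 to 14 kinesins higher and 6 to 13 lower in RNA, 16 to 20 higher and 2 to 6 lower on ribosomes, and 14 to 19 higher and 0 to 3 lower in efficiency. Over all genes it gave 3761 to 6777 higher and 3992 to 6722 lower of 19148 to 19340 in RNA. On ribosomes these counts were 3527 to 4430 and 3108 to 4251 of 12604 to 12830. In efficiency they were 2351 to 3059 and 1697 to 2830 of 11881 to 12367. Transport kinesins called higher numbered 10 to 12 on ribosomes and 9 to 12 in efficiency.

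The RNA change of KIF5B was -0.00834 with DESeq2 and -0.00829 with its size factors, against 0.03. Without the 2 libraries that stand apart, the efficiency change was -0.0266 for KIF15, -0.076 for KIF24 and -0.35 for KIF18A, against 0.37, 0.22 and 0.22. On leaving out 1 library, RNA changes ranged from -0.12 to 0.21 for KIF5B, -0.0659 to 0.49 for KIF18A, -0.00946 to 0.23 for KIF4A, -0.0191 to 0.27 for KIF1B and -0.23 to 0.0349 for KIF15, ribosome-bound changes from -0.12 to 0.71 for KIF24 and -0.0213 to 0.56 for KIF2C, and efficiency changes from -0.44 to 0.18 for KIF11, -0.18 to 0.39 for KIF18A and -0.0225 to 0.82 for KIF24. The causes were not tested.

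Same-numbered ribosome-bound libraries of the states did not deviate together (r = -0.13, -0.21 and -0.004). For same-numbered ribosome-bound and RNA libraries r was -0.03, -0.002 and -0.12 in NPC and -0.11, 0.13 and 0.08 in ESC. With 3 libraries per group these values cannot settle whether those numbers pair the samples. With the block, 16 kinesins were higher and 2 lower on ribosomes, beside 29.1% and 25.8% of all genes. In efficiency 19 were higher and 0 lower, beside 21.8% and 18.2% of all genes. In RNA, where same-numbered libraries correlated, the block gave 8 higher and 11 lower, beside 27.3% and 26.7% of all genes. The block there changed no call other than those of KIF11, KIF18B and KIF2A. Over all genes, efficiency was lower for 2232 with all libraries and 3611 without both that stand apart. Ribosome-bound depth left KIF6, KIF12 and KIF19 untested on ribosomes.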
